A study of Mus musculus with 34 samples.

Results

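The 10 genes described here encode chaperones of the endoplasmic reticulum and transcription factors of its stress response, and were taken by symbol from the 24485 gene symbols of the count tables. They are Hspa5, Hsp90b1, Calr, Canx, Pdia3, Pdia4, Pdia6, Xbp1, Atf4 and Ddit3. All 10 were found in each of the 3 tables and passed the filter on low counts in every comparison. RNA was measured in 34 libraries from hippocampus of mice given as wild type (WT), which had received fluoxetine, a selective serotonin reuptake inhibitor used as an antidepressant, or vehicle. The extraction named for every library is translating ribosome affinity purification (TRAP), in which tagged ribosomes are pulled down together with the mRNAs they carry. For granule cells, which are the main cell type of the dentate gyrus, there were 4 libraries with vehicle and 4 with fluoxetine. Mossy cells, the excitatory neurons of the dentate hilus (spelled "Moosy cells" in the labels), had 6 vehicle and 7 fluoxetine libraries, and the libraries whose cell type is given as hippocampus had 6 and 7. The labels give no dose, duration, age or sex, do not name the driver or the line that carried the ribosome tag, and do not say whether the hippocampus libraries hold bound RNA.

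Proteins that are secreted or sit in membranes fold in the endoplasmic reticulum. There Hspa5 (BiP) and Hsp90b1 (GRP94), the Hsp70 and Hsp90 chaperones of the compartment, hold unfolded chains, Calr and Canx (calreticulin and calnexin) hold newly made glycoproteins by their sugar chains, and Pdia3, Pdia4 and Pdia6 form and rearrange disulfide bonds. When unfolded protein builds up, a set of membrane sensors starts the unfolded protein response. Ern1 (IRE1) splices the mRNA of Xbp1, Atf6 is cut to release a transcription factor, and Eif2ak3 (PERK) slows translation and favours translation of Atf4, which in turn raises Ddit3 (CHOP). Xbp1 and Atf6 act on chaperone promoters through the endoplasmic reticulum stress response element (ERSE), while Atf4 and Ddit3 act on genes of amino acid supply and of cell death. In neurons the same chaperones serve the making of receptors, channels and secreted peptides, and the counts used here do not separate spliced from unspliced Xbp1.

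The promoters are shown first because an exact match of letters divides the members. The ERSE was searched as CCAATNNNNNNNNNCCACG on both strands of the 300 bases from 250 before to 50 after each gene's start (RefSeq, GRCm38.p6). It lay in 5 of the 10 members and in 39 of 32851 promoter windows (0.119%), the members' own windows included. All matches in members lay before the start. The element was chosen as one known from chaperone promoters, so finding it in chaperone genes is no test of enrichment. The 250 bases before the start of each of these 5, read on the gene's own strand, follow with the fixed letters of the element in capitals. Pdia3 is added because its difference with fluoxetine was the one that left mossy-cell groups without overlap, and it holds no exact match. A stretch of it, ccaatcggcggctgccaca, differs from the element only in the last letter. Pdia4, not printed here, holds such a stretch too, on the opposite strand. How many windows hold such near matches was not counted, so the division of the members rests on exact letters.
Hspa5 (chr2:34771840-34772089, plus strand): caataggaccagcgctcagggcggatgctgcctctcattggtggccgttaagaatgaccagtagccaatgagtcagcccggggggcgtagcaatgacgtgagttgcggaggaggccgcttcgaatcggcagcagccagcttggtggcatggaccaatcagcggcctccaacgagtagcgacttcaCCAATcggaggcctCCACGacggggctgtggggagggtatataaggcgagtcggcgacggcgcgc
Hsp90b1 (chr10:86705445-86705694, minus strand): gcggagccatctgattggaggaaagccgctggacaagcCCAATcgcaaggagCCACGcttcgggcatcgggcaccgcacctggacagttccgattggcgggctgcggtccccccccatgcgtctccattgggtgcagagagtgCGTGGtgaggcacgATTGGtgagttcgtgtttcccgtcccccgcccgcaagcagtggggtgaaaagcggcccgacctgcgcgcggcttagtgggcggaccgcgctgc
Calr (chr8:84846932-84847181, minus strand): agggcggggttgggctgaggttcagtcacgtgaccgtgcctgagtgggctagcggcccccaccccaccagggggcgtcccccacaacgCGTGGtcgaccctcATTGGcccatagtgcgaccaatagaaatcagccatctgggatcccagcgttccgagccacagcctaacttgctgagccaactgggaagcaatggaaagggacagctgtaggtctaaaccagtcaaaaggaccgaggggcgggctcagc
Canx (chr11:50325674-50325923, minus strand): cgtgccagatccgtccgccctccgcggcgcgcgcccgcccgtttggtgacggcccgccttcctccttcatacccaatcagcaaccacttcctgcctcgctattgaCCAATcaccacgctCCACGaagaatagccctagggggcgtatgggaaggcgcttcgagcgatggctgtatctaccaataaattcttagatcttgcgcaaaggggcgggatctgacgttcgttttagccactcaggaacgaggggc
Pdia6 (chr12:17266339-17266588, plus strand): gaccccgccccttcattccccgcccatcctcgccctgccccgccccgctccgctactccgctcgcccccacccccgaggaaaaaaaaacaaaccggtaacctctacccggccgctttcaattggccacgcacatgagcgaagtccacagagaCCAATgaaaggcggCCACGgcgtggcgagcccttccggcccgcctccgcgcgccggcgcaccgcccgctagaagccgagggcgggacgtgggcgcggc
Pdia3 (chr2:121413652-121413901, plus strand): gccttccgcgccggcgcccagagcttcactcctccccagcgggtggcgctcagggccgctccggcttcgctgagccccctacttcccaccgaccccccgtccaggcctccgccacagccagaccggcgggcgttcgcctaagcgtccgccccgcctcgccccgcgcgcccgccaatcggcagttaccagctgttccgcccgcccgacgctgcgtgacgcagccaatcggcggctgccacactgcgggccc
Counted from the start of the gene, the element lay at bases -65 to -47 in Hspa5, -98 to -80 in Pdia6 and -145 to -127 in Canx. It lay at -162 to -144 in Calr, on the opposite strand, and in Hsp90b1 both at -212 to -194 and, on the opposite strand, at -107 to -89. The CCAAT box, the letters with which the element begins, was found in 9 of the 10 members and in 37.4% of all windows, with Xbp1 the member that lacked it. Of the other motifs searched, ERSE-II (0.0365% of windows), the unfolded protein response element (TGACGTGG, 0.676%) and the C/EBP-ATF composite element (TGATGNAAN, 3.95%) had no match in these windows of the 10 members. A match of letters is a description of the promoter and says nothing of binding in these cells.

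Total counts ran from 14.1 M to 45.0 M per library (M, mega). The mossy-cell marker list summed to 319.8 to 697 CPM (counts per M counts of the library, with TMM-scaled library sizes) in the libraries of that name, against 37.5 to 62.7 in hippocampus and 26.3 to 45.2 in granule cells. Granule-cell markers summed to 1233 to 1723 CPM in granule-cell libraries, against 541 to 702 in hippocampus and 287 to 382 in mossy cells. Interneuron markers were also high in the mossy-cell libraries (3136 to 6037 CPM, against 482 to 1059 in all others), so a level there cannot be given to mossy cells alone. No marker of any list was at 0 in all libraries of a group. The precursor of ribosomal RNA, Rn45s, took 0.694 to 7.71% of counts in granule cells, 15.3 to 22.5% in mossy cells and 11.5 to 15.3% in hippocampus. Granule-cell libraries carry a sample numbering of their own. The numbering does not name a run, and a difference in handling, if there was one, cannot be told apart from a difference between sources. Fewer cells of a type and less RNA per cell cannot be told apart either, and as the labels do not say that replicates are separate animals, p-values measure the spread between these libraries.

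**Figure D1:**
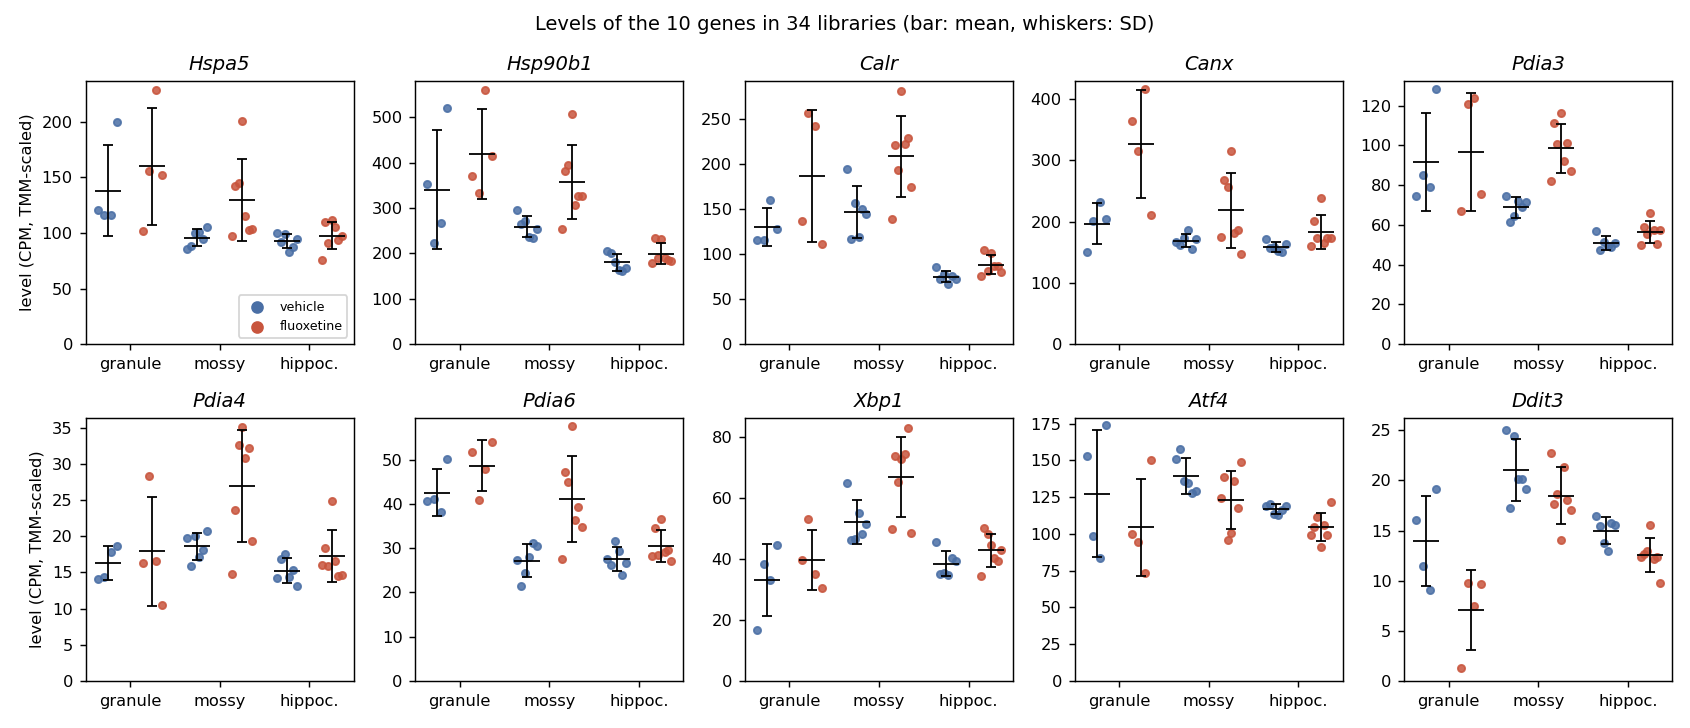
Level of each of the 10 genes (CPM with TMM-scaled library sizes, 1 point per library, mean and SD) in granule cells, mossy cells and hippocampus under vehicle and fluoxetine, on axes that start at 0. In mossy cells all 7 fluoxetine points of Pdia3 lie above the 6 vehicle points, from 82.2 CPM upward against 74.7 at most.

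Per kilobase of exon, Hsp90b1 or Atf4 led the 10 genes in every group. In mossy cells under vehicle the levels were 64.3 ± 5.78 CPM per kb for Hsp90b1, 59.1 ± 5.19 for Atf4 and 51 ± 10 for Calr (mean ± SD, n = 6). Canx followed at 36.1 ± 2.27, Hspa5 at 22.7 ± 1.85, Pdia3 at 21.9 ± 1.62 and Xbp1 at 16 ± 2.2. Ddit3 at 12.3 ± 1.8, Pdia4 at 7.75 ± 0.777 and Pdia6 at 7.26 ± 0.979 closed the order. The ranges of neighbours in this order overlapped, except between Calr and Canx, Canx and Hspa5, and Ddit3 and Pdia4. With vehicle in hippocampus Atf4 (49.5 ± 1.37 CPM per kb) stood at the head with Hsp90b1 (44.7 ± 4.87), whose range overlapped its own, and Pdia4 came last (6.36 ± 0.713, n = 6). In granule cells under vehicle Hsp90b1 stood at 84.5 ± 32.7 CPM per kb (n = 4), and the only break between neighbours was the one between Pdia3 (29.2 ± 7.9) and Pdia6 (11.4 ± 1.4).

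In mossy cells 4 of the 7 chaperone genes were higher with fluoxetine, by 1.38- to 1.51-fold, and none of the 10 members was lower. The 4 were Hsp90b1, Calr, Pdia3 and Pdia6. Over all genes, 8.05% of 14229 tested were called higher and 1.26% lower (edgeR, adjusted p under 0.05). The other 3 chaperones and Xbp1 had positive changes that missed the threshold, and Atf4 and Ddit3 had small negative ones. The median change of the 10 was 0.446 on the log2 scale, against -0.003306 over all genes tested.

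Pdia3 (ERp57), the disulfide isomerase that works with calnexin and calreticulin, ranged over 61.3 to 74.7 CPM (median 70.1) with vehicle and 82.2 to 116 CPM (median 100.5) with fluoxetine in mossy cells. The groups did not overlap, and the change was called (log2 0.52 ± 0.09 SE, adjusted p = 0.00219, n = 6 and 7). How many of all genes tested had groups without overlap was not counted. Pdia6 (P5), a second isomerase, had 21.5 to 31 CPM (median 27.7) with vehicle and 27.5 to 57.6 CPM (median 39.3) with fluoxetine. Its lowest fluoxetine library, number 1, lay among the vehicle libraries and the other 6 above them all (log2 0.60 ± 0.14 SE, adjusted p = 0.0122). Hsp90b1 had 234 to 295 CPM (median 259) with vehicle and 253 to 507 CPM (median 326) with fluoxetine. Again library 1 was the one among the vehicle values, and library 4 stood highest (log2 0.46 ± 0.12 SE, adjusted p = 0.0192). Calr had 117 to 195 CPM (median 147) and 139 to 281 CPM (median 221). Only 4 of its 7 fluoxetine libraries lay above the highest vehicle library (log2 0.51 ± 0.14 SE, adjusted p = 0.0257).

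Pdia4 (ERp72), Hspa5 and Canx did not pass the threshold in mossy cells. For Pdia4 the vehicle libraries held 15.9 to 20.7 CPM (median 18.9) and the fluoxetine libraries 14.8 to 35.2 CPM (median 30.8), with 5 of 7 above every vehicle library and library 1 below them all (log2 0.53 ± 0.17 SE, adjusted p = 0.0511). Hspa5, the chaperone that also keeps the sensors inactive, had 85.5 to 105 CPM (median 97.5) with vehicle and 96.9 to 201 CPM (median 115) with fluoxetine. Libraries 2, 3, 4 and 5 lay above every vehicle library, with library 4 far above the rest. The log2 change of Hspa5 was 0.43 ± 0.14 SE (edgeR adjusted p = 0.0548, approximate 95% interval 0.16 to 0.70). Canx had 155 to 186 CPM (median 169.5) and 148 to 315 CPM (median 186), with 4 libraries above every vehicle library and 1 below (log2 0.37 ± 0.14 SE, adjusted p = 0.106).

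Among the transcription factors of mossy cells, Xbp1 had 46.2 to 65 CPM (median 49.9) with vehicle and 48.7 to 83.1 CPM (median 73) with fluoxetine. In 5 of 7 fluoxetine libraries it was above every vehicle library (log2 0.36 ± 0.13 SE, adjusted p = 0.0786). Atf4 had 128 to 158 CPM (median 136) and 96.1 to 149 CPM (median 124), with 4 fluoxetine libraries below every vehicle library (log2 -0.18 ± 0.10 SE, adjusted p = 0.313). Ddit3, which stands for the late, death-linked arm, had 17.3 to 25.1 CPM (median 20.1) and 14.1 to 22.7 CPM (median 18) (log2 -0.19 ± 0.13 SE, adjusted p = 0.412). The groups of both overlapped, and neither passed, with intervals of -0.38 to 0.02 for Atf4 and -0.44 to 0.07 for Ddit3.

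How many members were called in mossy cells depended on the libraries and the tool, while none of the 8 positive changes turned negative. The count was 7 with DESeq2, 8 with limma-voom and 7 with a correction for GC content and length. It was 3 without fluoxetine library 4, 7 without fluoxetine library 1, 8 without fluoxetine library 7, and 3, 2 and 3 without vehicle library 2, 4 and 6. Without fluoxetine libraries 2 and 4, which have the highest summed CPM of the 7 chaperones, 1 member, Pdia3, was called, a drop that the choice of those libraries in part makes. Pdia3 and Pdia6 kept the call without any single library. Hsp90b1 lost it without vehicle library 4 (adjusted p = 0.0598). Calr lost it without vehicle library 2, 4 or 6 and without fluoxetine library 4 or 6, with adjusted p-values up to 0.0812, and with the replicate number as a block (0.0627).

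**Figure D2:**
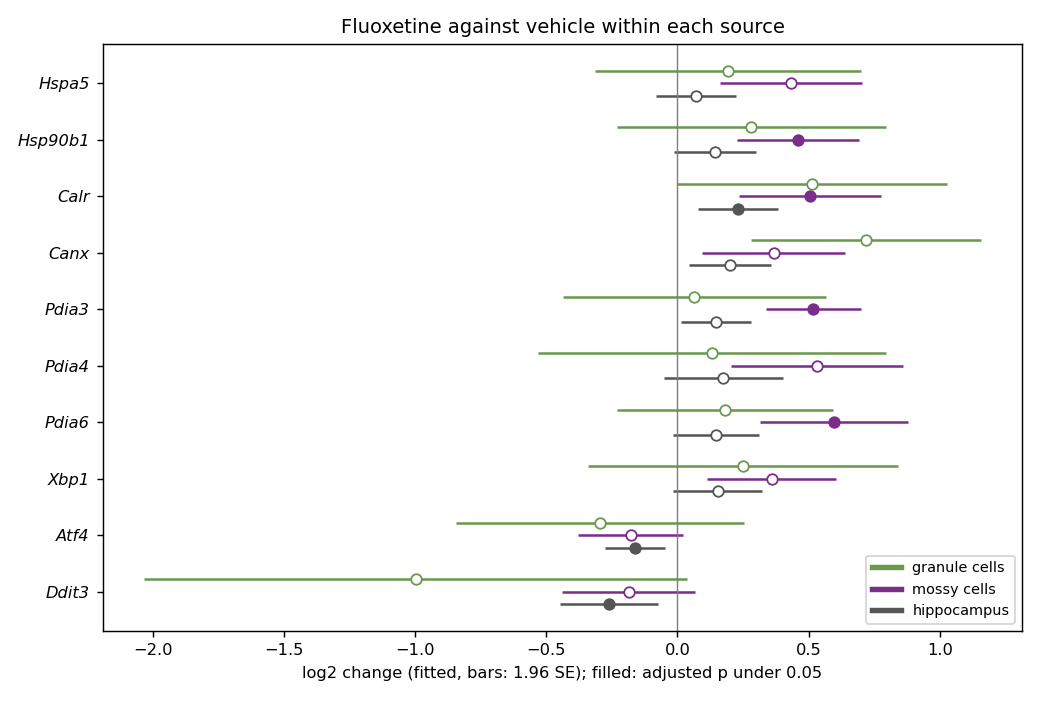
Fitted log2 change of fluoxetine against vehicle for each of the 10 genes in granule cells, mossy cells and hippocampus. Bars give the approximate 95% interval, and filled points an adjusted p under 0.05 in edgeR. Filled points are 4 in mossy cells, 3 in hippocampus and 0 in granule cells, and the bars of granule cells are the widest for all 10 genes.

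Part of the genes that work with the members were also higher in mossy cells with fluoxetine. Of 22 other chaperones and oxidoreductases of the endoplasmic reticulum, 11 were called higher and 0 lower, with a median log2 change of 0.42. Hyou1, the nucleotide exchange factor of Hspa5, led with 0.76 ± 0.14 (SE, adjusted p = 0.00239), followed by its J-domain partners Dnajb11 (0.64, adjusted p = 0.00515) and Dnajc10 (0.46, adjusted p = 0.00957). Among 14 genes of N-glycosylation and glycoprotein folding 8 were called higher and 0 lower (median 0.453). Ddost (0.74, adjusted p = 0.00289) and Rpn1 (0.55, adjusted p = 0.00818), subunits of the transferase that adds sugar chains, were among them, as was Ganab (0.56, adjusted p = 0.00341), the glucosidase that trims chains for Calr and Canx.

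Degradation and entry genes followed. Of 16 genes of degradation from the endoplasmic reticulum, 6 were called higher and 0 lower (median 0.307). Syvn1 (HRD1), the ubiquitin ligase of that route, changed by 0.69 (adjusted p = 0.001), the lectin Os9 by 0.63 (adjusted p = 0.00201) and Vimp, which recruits the extracting ATPase, by 0.55 (adjusted p = 0.0046). Of 15 genes of the translocon and signal peptidase, 6 were called higher and 0 lower (median 0.391), with Sec61a1, the channel itself, at 0.56 (adjusted p = 0.00628), the peptidase subunit Spcs1 at 0.41 (adjusted p = 0.00626) and the translocon-associated Ssr4 at 0.43 (adjusted p = 0.0228). Without fluoxetine libraries 2 and 4 the called numbers of these 4 lists were 4, 7, 4 and 2, and leaving out each single library gave 3 to 13, 7 to 10, 4 to 7 and 2 to 10.

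Sensors and the targets of Atf4 and Ddit3 gave fewer calls. Of 9 tested sensors and activators 1, Eif2ak3, was called higher (0.61, adjusted p = 0.0246; median of the list 0.352). None was called without fluoxetine libraries 2 and 4. Of 20 tested targets of Atf4 and Ddit3, 2 were called higher and 0 lower, and the median was -0.072. Both, Slc7a5 (0.64, adjusted p = 0.00149) and Slc3a2 (0.58, adjusted p = 0.00577), encode the paired chains of a single amino acid transporter. Of 16 cytosolic chaperones 0 were higher and 1, Dnaja1, was lower (-0.36, adjusted p = 0.0253), with a list median of -0.117.

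Markers of glia were also higher in the fluoxetine libraries of mossy cells. The 8 microglia markers summed to 7.48 to 14.6 CPM with vehicle and 16.2 to 114 with fluoxetine, and 4 of 7 tested were called higher. The 10 astrocyte markers summed to 382 to 542 CPM and 432 to 1407, with 2 of 10 called higher. Library 4 had the highest sum of microglia markers, of astrocyte markers and of the 7 chaperones (1513 CPM, against 789 to 1195 in the other 6 fluoxetine libraries and 730 to 864 with vehicle). The part of glial RNA in the chaperone differences was not tested. Without library 4, 3 members were called in place of 4, with Calr the one that lost its call (adjusted p = 0.0615). Choroid plexus markers also moved, with Ttr lower in mossy cells with fluoxetine (-4.50, adjusted p = 0.018). The 6 markers of that list summed to 4.17 to 279 CPM with vehicle and 3.56 to 12.5 with fluoxetine, and their part in the members' values was not tested.

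**Figure D3:**
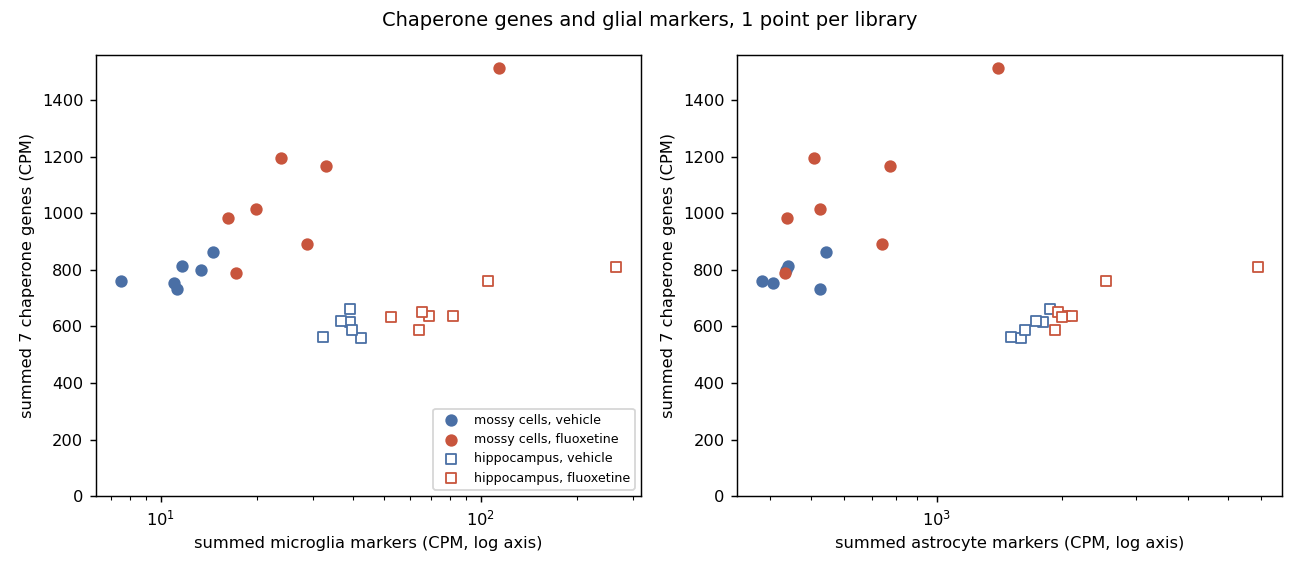
Summed level of the 7 chaperone genes (CPM, linear axis from 0) against the summed level of microglia markers and of astrocyte markers (CPM, log axes), 1 point per library of mossy cells and hippocampus. Mossy-cell fluoxetine library 4 has the highest value on all 3 sums of its source (1513, 114 and 1407 CPM). Hippocampus vehicle libraries hold more of both glial lists than mossy-cell vehicle libraries. The chaperone sums with vehicle are 558 to 662 CPM in hippocampus and 730 to 864 CPM in mossy cells. The part of glial RNA in the chaperone sums was not tested.

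In hippocampus 3 members differed with fluoxetine. Calr was higher by 1.17-fold, Atf4 and Ddit3 were lower, and the other 7 did not pass. In this comparison 15.5% of 15596 genes were called higher and 14.7% lower, so 1 and 2 of 10 lie close to the shares of all genes. With the correction for GC content and length the calls over all genes were split otherwise, 1686 higher and 3118 lower in place of 2411 and 2294.

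Calr had 66.9 to 85.5 CPM (median 73.9) with vehicle and 76.2 to 105 CPM (median 87.1) with fluoxetine in hippocampus, with 4 of 7 fluoxetine libraries above every vehicle library (log2 0.23 ± 0.08 SE, adjusted p = 0.0318, n = 6 and 7). Atf4 had 113 to 121 CPM (median 118) and 91.3 to 122 CPM (median 104), with 6 of 7 below every vehicle library and library 7 above them all (log2 -0.16 ± 0.06 SE, adjusted p = 0.0434). Ddit3 had 12.9 to 16.5 CPM (median 15.5) and 9.73 to 15.6 CPM (median 12.4), with 5 of 7 below every vehicle library (log2 -0.26 ± 0.10 SE, adjusted p = 0.0474). These 3 calls were marginal. Calr lost its own without vehicle library 2, 4 or 6 and fluoxetine library 2 or 4, with adjusted p-values up to 0.0665, and with the replicate block (0.053). Atf4 kept its call only without fluoxetine library 3 or 7 and Ddit3 only without vehicle library 4 or fluoxetine library 4, with adjusted p-values up to 0.0926 and 0.116 without the other single libraries. Without Rn45s and Lars2 neither of them was called (0.065 and 0.0656), nor with upper quartile scaling (0.057 for Atf4 and 0.0525 for Ddit3). Ddit3 was also not called with the block (0.142), with RLE scaling (0.0542) and with the correction for GC content and length (0.114).

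Members that did not pass in hippocampus were called in 2 results without a single library and in 1 with another setting. In the main fit Canx came nearest. It ranged over 150.3 to 172 CPM (median 158) with vehicle and 159.6 to 239 CPM (median 173) with fluoxetine, with 5 of 7 above every vehicle library (log2 0.20 ± 0.08 SE, adjusted p = 0.0621). For Pdia3 the ranges were 47.5 to 57.1 CPM (median 50.1) and 49.9 to 65.8 CPM (median 57.3) (log2 0.15 ± 0.07 SE, adjusted p = 0.104). Hspa5 had the smallest change of the 10, with 83.1 to 99.9 CPM (median 93) and 76 to 111 CPM (median 97.3) and an interval of -0.08 to 0.22 on the log2 scale. The changes of Hsp90b1, Pdia4, Pdia6 and Xbp1 were 0.14, 0.17, 0.15 and 0.15, with adjusted p-values of 0.182, 0.265, 0.19 and 0.188. Fluoxetine libraries 2 and 4 had the highest Hspa5, Hsp90b1, Calr, Canx, Pdia3, Pdia4 and Pdia6 of their group, and also the highest sums of microglia markers (105 and 266 CPM, against 52.6 to 81.7 in the other 5 and 32.1 to 42.2 with vehicle). All 8 microglia markers and 6 of 10 astrocyte markers were called higher in this comparison. All 3 tested choroid plexus markers were called lower, Ttr (-5.74, adjusted p = 0.00587), Clic6 (-4.80, adjusted p = 0.00394) and Kl (-1.08, adjusted p = 0.0122), and that list summed to 21.6 to 5354 CPM with vehicle and 20.97 to 109.8 with fluoxetine. Vehicle libraries 1, 2 and 4 held its highest sums, in hippocampus as in mossy cells. The part of these cell types in the members' values was not tested.

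Except for the sensors, the wider secretory lists in hippocampus held more calls than the members did, and these lists are also longer. In N-glycosylation and glycoprotein folding 12 of 14 genes were called higher and 0 lower (median log2 change 0.324), led by the folding sensor Uggt2 (0.67, adjusted p = 0.000997), the transferase subunit Stt3a (0.37, adjusted p = 0.00317) and the cargo receptor Lman1 (0.42, adjusted p = 0.00402). In degradation 11 of 16 were called higher and 1 lower (median 0.3). The higher ones included Sel1l (0.32, adjusted p = 0.00308), the partner of Syvn1, and Edem2 (0.54, adjusted p = 0.00427). Erlec1 (0.33, adjusted p = 0.00369), which reads the sugar chains of proteins sent for degradation, was also higher. The conjugating enzyme Ube2j1 was lower (-0.30, adjusted p = 0.00796).

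Among other chaperones 8 of 22 were called higher and 0 lower in hippocampus (median 0.244), led by the prolyl isomerase Ppib (0.39, adjusted p = 0.00333), Hyou1 (0.40, adjusted p = 0.00465) and Ero1l (0.29, adjusted p = 0.00582), the oxidase that recharges disulfide isomerases. The translocon and signal peptidase list was divided, with 8 of 15 higher and 2 lower (median 0.195). The channel genes Sec61a1 (0.38, adjusted p = 0.00685) and Sec61a2 (0.46, adjusted p = 0.00173) and the associated Ssr1 (0.26, adjusted p = 0.0138) were higher, and the small channel subunits Sec61b (-0.32, adjusted p = 0.00398) and Sec61g (-0.22, adjusted p = 0.0497) lower. Of 9 sensors 2 were higher, Mbtps1 (0.42, adjusted p = 0.00235), the protease that cuts Atf6, and Eif2ak3 (0.34, adjusted p = 0.0295). Leaving out each single library gave 11 to 12 higher genes of glycosylation, 7 to 11 of degradation and 6 to 9 other chaperones. It gave 4 to 11 higher genes of the translocon list and 1 to 3 higher sensors.

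Among stress targets and cytosolic chaperones in hippocampus, lower calls outnumbered higher ones in the main fit, for the targets by few genes. Of 21 tested targets of Atf4 and Ddit3, 2 were higher and 4 lower (median -0.126), where 15.5% of all genes were higher and 14.7% lower. The transporter genes Slc7a5 (0.49, adjusted p = 0.00449) and Slc3a2 (0.36, adjusted p = 0.00947) were the higher ones, and Asns (-0.23, adjusted p = 0.016) and Psat1 (-0.24, adjusted p = 0.0305), which make asparagine and serine, and Ddit4 (-0.29, adjusted p = 0.0386), an inhibitor of mTOR signalling, were among the lower ones. Of 16 cytosolic chaperones 10 were lower and 0 higher (median -0.252), with Hsp90aa1 at -0.37 (adjusted p = 0.000424), Dnaja1 at -0.33 (adjusted p = 0.000615) and Stip1, which links Hsp70 and Hsp90, at -0.37 (adjusted p = 0.00126). With the correction for GC content and length, 8 targets were lower and 2 higher, and 4 translocon genes were higher and 2 lower. Leaving out each single library gave 1 to 5 lower and 2 higher targets, and 8 to 11 lower and 0 higher cytosolic chaperones.

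**Figure D4:**
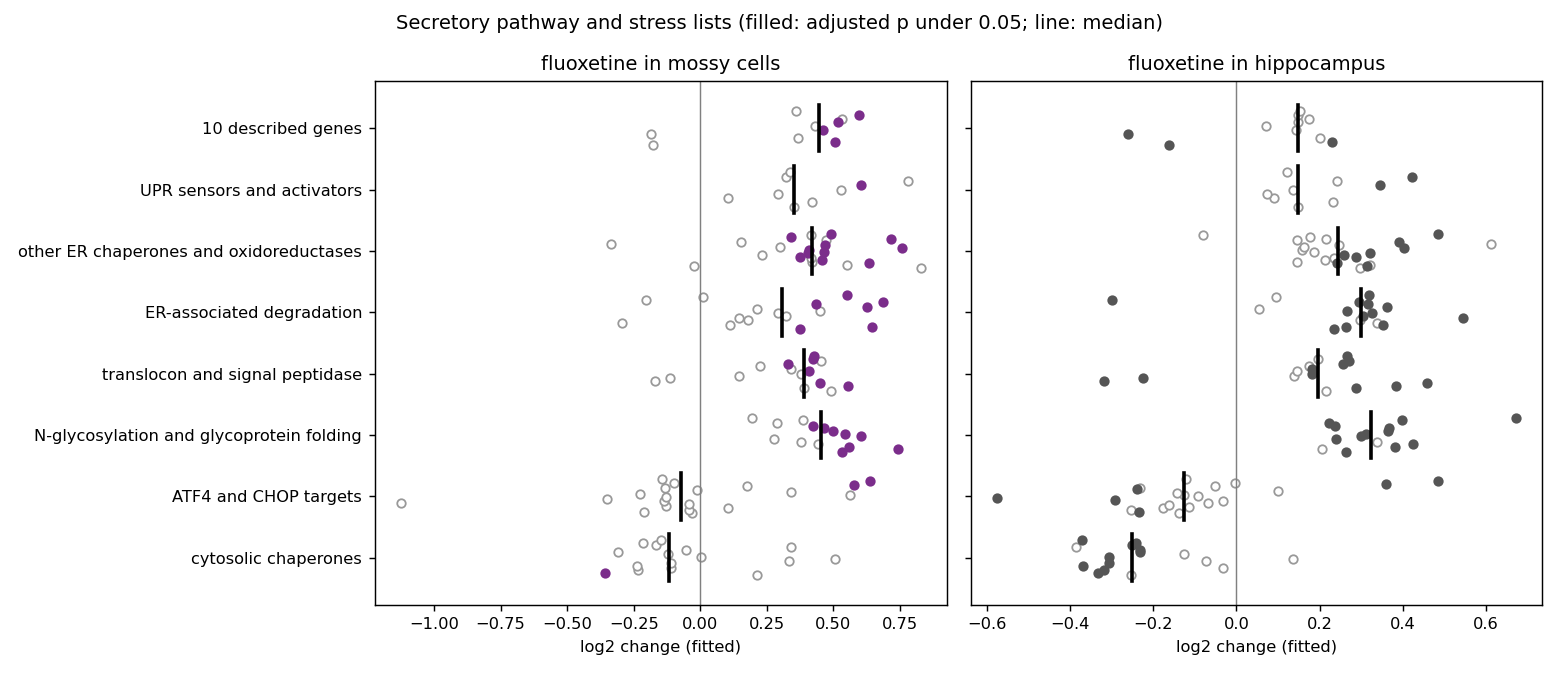
Fitted log2 change with fluoxetine of each tested gene in the 8 lists, in mossy cells and in hippocampus, with filled points for an adjusted p under 0.05 in edgeR and a line at each list's median. The 5 lists of folding, degradation, entry, glycosylation and sensors have medians above 0 in both sources, and the targets of Atf4 and Ddit3 and the cytosolic chaperones have medians below 0 in both.

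In granule cells no member was called, as was true of all 14236 genes tested (0.0%; 554 higher and 502 lower at an unadjusted p under 0.05 in edgeR, and 68 higher and 37 lower at an adjusted p under 0.05 in DESeq2). The values of Canx were 150.5, 201, 232 and 205 CPM in vehicle libraries 1 to 4 and 364, 316, 416 and 210.4 in fluoxetine libraries 1 to 4, with 3 of 4 above every vehicle library. Its log2 change was 0.72 ± 0.22 (SE, adjusted p = 0.451, n = 4 and 4). Ddit3 had 16.1, 11.5, 9.07 and 19.1 CPM with vehicle and 1.29, 9.78, 7.45 and 9.64 with fluoxetine (log2 -0.998 ± 0.53 SE, adjusted p = 0.7), and the lowest value was that of fluoxetine library 1. Calr had 115, 116, 160.4 and 128 CPM and 137, 257, 242 and 111 (log2 0.51 ± 0.26 SE, adjusted p = 0.69). The groups overlapped for all 3. The astrocyte markers summed to 1026 to 1213 CPM with vehicle and 1386 to 1812 with fluoxetine in these libraries, and the microglia markers to 42.2 to 68.7 and 72.2 to 101.6. Neither pair of ranges overlapped, no marker of either list was called, and their part in the members' values was not tested.

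Spread between granule-cell libraries was wide for the other members. Hspa5 had 121, 116, 116 and 199.6 CPM with vehicle and 102, 156, 229 and 152 with fluoxetine (log2 0.19 ± 0.26 SE, adjusted p = 0.895, interval -0.31 to 0.70). Hsp90b1 had 353, 222, 266 and 521 CPM and 370.4, 334, 559.9 and 414 (log2 0.28 ± 0.26 SE, adjusted p = 0.824). Vehicle library 4 was the highest of its group for both. For Pdia3, Pdia4 and Pdia6 the changes were 0.06, 0.13 and 0.18, for Xbp1 0.25 and for Atf4 -0.30, with adjusted p-values of 0.975, 0.952, 0.875, 0.878 and 0.829. The intervals of these 5, such as -0.44 to 0.56 for Pdia3, hold the changes seen in mossy cells for Pdia3, Pdia4, Xbp1 and Atf4. That of Pdia6 ends at 0.59, beside 0.60 in mossy cells. These intervals use a normal multiple of the SE and are somewhat narrow, so their ends do not set Pdia6 apart. No gene of the 7 other pathway lists passed either, and the list medians lay between -0.091 and 0.406.

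The test of the difference between the fluoxetine effects of mossy cells and hippocampus called no member, and 7 of 15922 genes (0.044%) in all. The difference was largest for Pdia6 at 0.47 ± 0.17 (SE, adjusted p = 0.3), and Pdia3 had 0.39 ± 0.11 (adjusted p = 0.177). For Hspa5, Pdia4, Hsp90b1 and Calr it was 0.38, 0.38, 0.34 and 0.30, with adjusted p-values of 0.404, 0.504, 0.404 and 0.504. For Xbp1, Canx, Ddit3 and Atf4 it was 0.23, 0.19, 0.09 and 0.00, with intervals of -0.08 to 0.54, -0.15 to 0.53, -0.22 to 0.41 and -0.23 to 0.24. With the replicate number as a block, Pdia3 was called (0.39, adjusted p = 0.0341), and 116 genes in place of 7. The labels do not say what a number shares, and the deviations of same-numbered mossy-cell and hippocampus libraries correlated above 0.1 in 6 of 6 vehicle and 5 of 7 fluoxetine pairs. The tests that set granule cells against mossy cells and against hippocampus called 0 of the 10 members too, while they called 28 of 15444 genes (0.181%) and 320 of 16124 (1.98%).

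**Figure D5:**
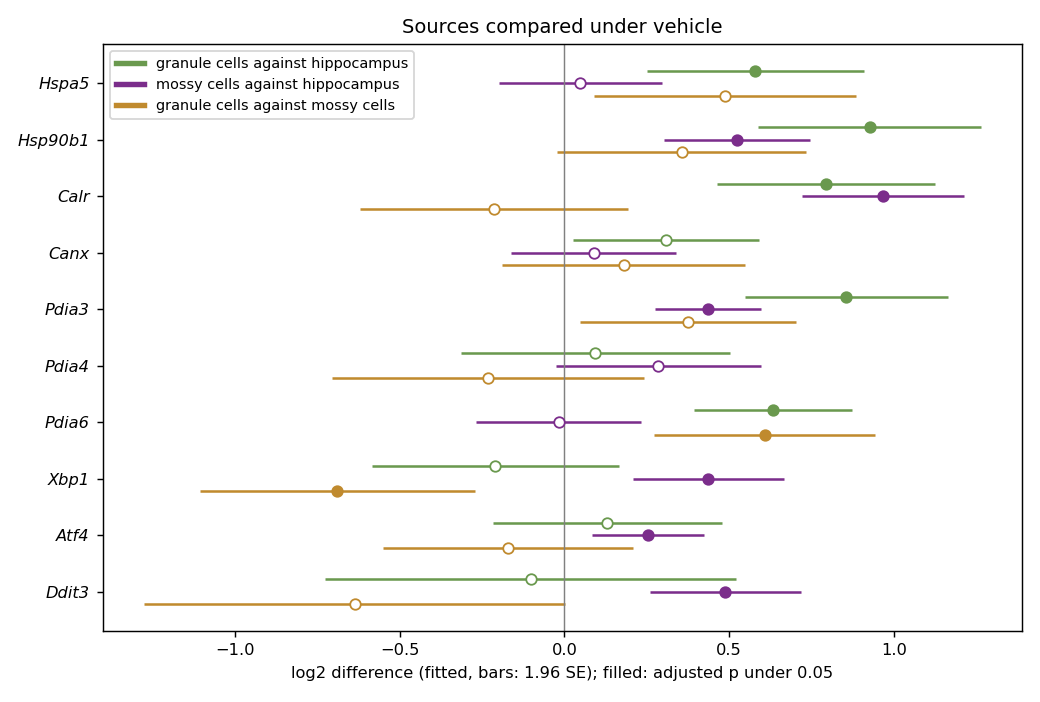
Fitted log2 difference between sources under vehicle for each of the 10 genes. Bars give the approximate 95% interval, and filled points an adjusted p under 0.05 in edgeR. Calr is the gene with the largest difference between mossy cells and hippocampus (0.97), and Xbp1 is the one filled point below 0, in granule against mossy cells.

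Under vehicle 6 of the 10 members were higher in mossy cells than in hippocampus and none was lower, where 31.3% of 15922 genes were higher and 32.8% lower. Calr differed most, by 1.95-fold, from 66.9 to 85.5 CPM (median 73.9) in hippocampus to 117 to 195 CPM (median 147) in mossy cells (log2 0.97 ± 0.13 SE, adjusted p = 8.7e-08). Hsp90b1 (log2 0.52 ± 0.11 SE, adjusted p = 0.000182) and Pdia3 (0.44 ± 0.08 SE, adjusted p = 3.37e-05) were the other chaperones. All 3 transcription factors were higher too, Ddit3 by 0.49 (adjusted p = 0.000572), Xbp1 by 0.44 (adjusted p = 0.00171) and Atf4 by 0.25 (adjusted p = 0.0121). For each of these 6 genes every mossy-cell vehicle library lay above every hippocampus vehicle library. The share of all genes that separate in this way was not counted. All 10 astrocyte markers and 7 of 8 microglia markers were lower in mossy cells and 8 of 9 interneuron markers higher, and the part of these cell types in the members' differences was not tested. Each of the 6 members kept its call without any 1 of the 26 libraries. Atf4 lost it under upper quartile scaling (0.14, adjusted p = 0.164), which moved the median of all genes from -0.04145 to -0.1566, and with the correction for GC content and length (0.21, adjusted p = 0.0603), which moved it to 0.2056 and gave 6746 higher and 3670 lower calls in place of 4981 and 5216.

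Granule cells differed from hippocampus in 5 chaperones, all higher, against 16.5% of 16124 genes higher and 13.2% lower. Hsp90b1 was higher by 0.93 ± 0.17 (SE, adjusted p = 0.000291), Pdia3 by 0.86 (adjusted p = 0.000261), Calr by 0.79 (adjusted p = 0.00107), Pdia6 by 0.63 (adjusted p = 0.000447) and Hspa5 by 0.58 (adjusted p = 0.0113). For all 5 every granule-cell vehicle library lay above every hippocampus vehicle library, and the share of all genes that separate so was not counted. Hspa5 lost the call without granule-cell vehicle library 4 (0.34, adjusted p = 0.104) and with limma-voom (0.0642). With the replicate block 3 of the 5 were called, and Hspa5 (0.103) and Pdia6 (0.0589) were not. Of the astrocyte markers 4 of 10 were lower in granule cells than in hippocampus, and of the oligodendrocyte markers 4 of 8, and their part in the members' differences was not tested. Over all genes the split of 2659 higher and 2123 lower calls was 1905 and 2822 with upper quartile scaling and 4654 and 1322 with the correction for GC content and length.

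Between granule and mossy cells under vehicle 2 members differed, in opposite directions, against 23.8% of 15444 genes higher in granule cells and 22.4% lower. Pdia6 was higher in granule cells, at 40.7, 41.1, 38.2 and 50.1 CPM against 21.5 to 31 CPM (median 27.7) in mossy cells (log2 0.61 ± 0.17 SE, adjusted p = 0.00522). Xbp1 was lower there, at 16.7, 38.4, 33.1 and 44.5 CPM against 46.2 to 65 CPM (median 49.9) (log2 -0.69 ± 0.21 SE, adjusted p = 0.00981). The groups did not overlap for either gene, though the share of all genes without overlap was not counted. Both kept the call without any 1 of the 21 libraries, but Xbp1 lost it with the correction for GC content and length (-0.38, adjusted p = 0.105). Markers of other cells differed as well, with 8 of 10 astrocyte, 7 of 8 microglia and 7 of 8 oligodendrocyte markers higher in granule cells and 8 of 9 interneuron markers lower, and their part in the members' differences was not tested. The 3 source comparisons share vehicle libraries, so their values are not independent of each other.

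Sensors and pathway genes also differed between sources under vehicle, in both directions. The sensor Atf6 was lower in mossy cells than in hippocampus (-0.98, adjusted p = 5.98e-09) and higher in granule than in mossy cells (1.46, adjusted p = 5.29e-08), while its relative Creb3l1 was higher in mossy cells than in hippocampus (1.43, adjusted p = 7.43e-07) and lower in granule than in mossy cells (-1.63, adjusted p = 0.00669). Ern1, which splices Xbp1, was lower in mossy cells than in hippocampus (-1.07, adjusted p = 0.000241). The targets of Atf4 and Ddit3 were divided, with 8 of 21 higher and 10 lower in mossy cells against hippocampus. Over all 15922 genes tested in that comparison, 31.3% were higher and 32.8% lower. Asns was higher by 0.92 (adjusted p = 3.99e-11), and Phgdh, an enzyme of serine synthesis, was lower (-2.64, adjusted p = 1.53e-10). Of 16 cytosolic chaperones 11 were higher in mossy cells than in hippocampus and 0 lower (median 0.508), with Hspa8 at 0.90 (adjusted p = 1.22e-11).

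The members were also compared over all 34 libraries, with the mean of each of the 6 groups taken off, as a description of how libraries of a group vary together. Between the 7 chaperones the 21 pairwise correlations of log2 CPM ran from 0.279 to 0.796, with a median of 0.557. The highest was that of Hspa5 with Pdia3. Between Atf4 and the 7 chaperones r ran from -0.631 for Canx to 0.154 for Hsp90b1, and Ddit3 had r = 0.25 with Atf4 and 0.389 with Hspa5. Libraries of a group differ in depth and composition, so these values describe the libraries and not a link between the genes.

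Among 13620 other genes tested in all 3 sources, those most like Hspa5 in this measure were Paqr9 (r = 0.798), Pdia3 (0.796), Sv2b (0.78), Sel1l (0.78) and Myh7 (0.773). Hsp90b1 was the seventh (0.767). Those most like Xbp1 were Cgref1 (0.831), Metrnl (0.814), Rnf10 (0.812), Rhobtb2 (0.804) and Sstr4 (0.792), and the nearest member was Pdia3 (0.602). Those most like Atf4 were Atp6v1g2 (0.887), Rab7 (0.871), B230209E15Rik (0.863), Higd1a (0.862) and Cox7b (0.86), and its nearest member was Ddit3 (0.25). With the group means left in, the order changed: Hsp90b1 was then first for Hspa5 (0.835) and Myh7 had r = -0.159.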

How the data were processed

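The authors deposited counts of reads per gene, in 3 tables for the 34 libraries. Per the labels' protocols, RNA from TRAP was amplified with the Ovation kit and read as paired ends. The build GRCm38 and the tools HTSeq 0.7.2, STAR 2.5.2b and edgeR are those of the submitters' processing notes; annotation, strand setting and the handling of reads with several matches are not given in the sources used here. From the deposited counts, edgeR 4.0.16 in R 4.3.3 fitted TMM-scaled libraries after filterByExpr with the quasi-likelihood test and Benjamini-Hochberg adjustment at 0.05 over all genes tested. Granule cells were compared with each other source, and mossy cells with hippocampus, in fits of 21, 21 and 26 libraries; fluoxetine was tested within each source alone. Alternatives were RLE and upper quartile scaling, no filter, DESeq2 1.42.0, limma 3.58.1 (voom with quality weights), the replicate number as a block, removal of Rn45s and Lars2, a loess correction for GC content and length (span 0.3), and each library left out. Leaving out mossy-cell fluoxetine libraries 2 and 4 or 6 and 7, or granule-cell vehicle library 1 with fluoxetine libraries 1 and 4, was chosen after seeing the data. Replicate numbers paired the vehicle libraries of mossy cells and hippocampus by the correlation of their deviations from group means (over 0.1 in 6 of 6 pairs, 5 of 6 best with their own number); this comes from the data, as the labels do not say what a number shares. The scripts were tested on simulated data. Members and lists were chosen with earlier results of these data known. All values of the 10 members are described; of each pathway list, at most 3 called genes per direction with the smallest p were eligible to be named, and for likeness the 5 genes of highest r. Total counts per library set the counting precision, and the fitted intervals hold both that and the spread between libraries. Each interval spans a normal multiple of the SE to either side of the change, which is narrower than the quasi-likelihood test would give.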

Additional observations from a re-analysis of the deposited data

Results flagged for a closer look

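Of 60 sets of libraries, 1 per gene and group, 2 held a library far from the others by Dixon's criterion, where chance gives about 1 in 20. Hspa5 in granule-cell vehicle library 4 stood at 199.6 CPM, and the next highest library of that group at 120.5 CPM. Pdia4 in hippocampus fluoxetine library 4 stood at 24.8 CPM, and the next at 18.4 CPM. Without the first library the higher Hspa5 of granule cells against hippocampus was no longer called (adjusted p = 0.104 in edgeR), and the second is also the hippocampus library with the most microglia and astrocyte marker counts (266 and 5876 CPM). No cause was tested.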

How the results depend on the processing

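Apart from leaving out single libraries, 35 of 174 counts moved by over 1.5 times, and 9 of 21 correlations between chaperones moved when group means were kept. For fluoxetine in mossy cells 4 members were called in the main fit, 7 with DESeq2, 8 with limma-voom, 7 with the correction for GC content and length, 1 without fluoxetine libraries 2 and 4 (753 genes over all, against 1325) and 8 without libraries 6 and 7. Leaving out each library gave 2 to 8 members and 773 to 1744 genes. In hippocampus 3 members became 1 with the replicate block, 1 without Rn45s and Lars2, and 0 to 2 without each library. In granule cells DESeq2 called 105 genes, against 0 in edgeR.

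For fluoxetine in mossy cells minus hippocampus, 7 genes became 23 with RLE, 33 with upper quartile scaling, 119 with DESeq2, 17 with limma-voom, 116 with the replicate block, 4 with the GC content and length correction, 25 without libraries 2 and 4, 12 without libraries 6 and 7, and 2 to 41 without each library. The block called 1 member, Pdia3. The Atf4 difference, near 0, changed sign to -0.03277 with RLE, -0.05005 with upper quartile scaling, -0.03231 with DESeq2, -0.003894 with limma-voom, -0.002567 with the block, -0.02939 with the correction for GC content and length, -0.04343 without libraries 6 and 7, and ran from -0.05002 to 0.05261 without each library. That of Canx was -0.02753 without libraries 2 and 4.

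For granule against mossy cells, 2 members became 4 with upper quartile scaling, 4 with limma-voom, 1 with the GC content and length correction, 5 without granule-cell vehicle library 1 and fluoxetine libraries 1 and 4, and 2 to 5 without each library. The 28 genes of the difference in fluoxetine effect became 318 with DESeq2, 1 with limma-voom, 0 with the block, 9 with the GC content and length correction, 0 without mossy-cell libraries 2 and 4, 0 without 6 and 7, 8 without the granule-cell libraries named, and 0 to 354 without each library. Granule cells against hippocampus gave 3 members and 1762 genes with the block. Their difference in fluoxetine effect, 320 genes, gave 199 with no filter, 1176 with DESeq2, 0 with limma-voom, 0 with the block, 46 to 1348 without each library, and 0 to 1 members. Without each library the granule-cell changes with fluoxetine ran from -0.01347 to 0.434 for Hspa5, -0.07034 to 0.279 for Pdia3 and -0.1912 to 0.3178 for Pdia4. The causes were not tested.

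Beyond the vehicle libraries of mossy cells and hippocampus, equal replicate numbers did not meet the criterion for pairing, a correlation of deviations from group means over 0.1 in every pair. It was over 0.1 in 5 of 7 fluoxetine pairs of mossy cells and hippocampus, although 7 of 7 correlated best with their own number, and in 3 of 4 granule-cell pairs of vehicle and fluoxetine. These are hints from the data and not the design. Between mossy cells and hippocampus under vehicle the block left 6 members called, none of the calls lost.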

Other observations

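The promoter element that 5 members carry as an exact match was found in 32 other genes, of which 14 were tested in mossy cells. With fluoxetine 2 of them were higher there, Alg12 (log2 change 0.78, adjusted p = 0.0199 in edgeR), which builds the sugar chain for N-glycosylation, and Syvn1 (0.69), and 1, Spats2l, was lower (-0.36, adjusted p = 0.0325). The median of the 14 was -0.142. In hippocampus 3 of 15 were higher and 2 lower, with a median of 0.155. Over all genes 8.05% were higher and 1.26% lower in mossy cells, and 15.5% and 14.7% in hippocampus. The counts are too small to set the carriers of the element apart from these shares.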
